A study of Mus musculus with 6 samples.

Results

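The Frizzled receptors and Lrp coreceptors receive Wnt signals at the cell surface, and their RNA was measured in 6 libraries made from mouse pancreatic colonies. The 8 genes described are Fzd1, Fzd2, Fzd3, Fzd4, Fzd5, Fzd8, Lrp5 and Lrp6, chosen by name, out of 11164 genes in the deposited table. They were chosen with earlier results of these data known. All 8 were in the table and all 8 passed the minimum mean of 1 RPKM (reads per kilobase of transcript and per megaread of the library). The colonies grew from cells of adult C57Bl/6 mice, 2 to 4 months of age, that had been sorted from the pancreas for high CD133 and low CD71. All groups were cultured with RSPO1, nicotinamide, exendin-4, activin B, serum, conditioned medium, methylcellulose and Matrigel, and under puromycin. The control group (shControl) carried 1 lentiviral shRNA with no mammalian target, the shGlis3 group a pool of 5 shRNA clones against Glis3, and the shCD133 group a pool of 5 against CD133, which Prom1 encodes. Each group has 2 libraries, numbered 1 and 3, from primary colonies 3 weeks old. The labels do not say whether these came from separate animals, and p-values reflect only how these libraries spread, which may be technical variation. The control differs from both knockdowns in being a single shRNA rather than a pool.

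Wnt proteins are secreted lipid-modified ligands that bridge a Frizzled, a membrane receptor with an extracellular cysteine-rich domain, and Lrp5 or Lrp6, single-pass membrane proteins. The complex recruits Dishevelled and Axin, which leads to stabilisation of beta-catenin; Frizzleds also act without Lrp5 or Lrp6 in planar cell polarity. R-spondins such as the RSPO1 in this medium bind Lgr receptors and the ubiquitin ligases Rnf43 and Znrf3, which otherwise remove Frizzleds and Lrp6 from the surface. The question behind the series, per its title, is how self-renewal of these progenitor-like cells depends on an axis of Glis3, CD133 and Wnt signalling.

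Differences in the receptor set between the groups were small. The median absolute log2 change of the 8 members was 0.05 in the Glis3 knockdown and 0.18 in the CD133 knockdown, beside 0.11 for all genes in each. Fzd8 was called lower in the Glis3 knockdown, and in the CD133 knockdown Fzd5 was called lower and Lrp5 higher. Fzd8 was also lower in the CD133 knockdown, at 82.4% of control, but was not called there. The sizes were near 20% of the control level and each call rested on few libraries, as given below. None of the 8 members was called between the knockdowns. Levels differed more between the genes themselves, from Fzd4 at 2.31 to Lrp5 at 28.0 RPKM in the control mean.

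The stretch before the annotated start is shown for the 3 members that have an entry in the RefSeq promoter table (GRCm38.p6), among them Fzd5, which was called in the CD133 knockdown, and Fzd4 and Fzd1, which were not called. Each is the 250 bases before the start, 5′ to 3′ on the gene's strand, and capitals mark the GC box GGGCGG on either strand, with overlapping matches included. Fzd5 (chr1:64737751-64738000, minus strand), Fzd4 (chr7:89404116-89404365, plus strand) and Fzd1 (chr5:4758217-4758466, minus strand) read:
Fzd5: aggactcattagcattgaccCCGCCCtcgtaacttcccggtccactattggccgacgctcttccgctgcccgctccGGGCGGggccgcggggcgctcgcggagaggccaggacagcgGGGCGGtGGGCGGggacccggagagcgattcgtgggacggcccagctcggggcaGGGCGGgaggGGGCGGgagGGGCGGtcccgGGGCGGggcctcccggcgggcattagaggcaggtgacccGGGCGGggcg
Fzd4: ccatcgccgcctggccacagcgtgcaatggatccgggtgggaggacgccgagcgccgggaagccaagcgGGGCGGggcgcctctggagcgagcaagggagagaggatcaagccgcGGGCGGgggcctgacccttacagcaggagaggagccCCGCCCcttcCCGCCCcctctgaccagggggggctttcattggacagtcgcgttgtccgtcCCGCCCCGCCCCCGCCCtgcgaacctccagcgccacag
Fzd1: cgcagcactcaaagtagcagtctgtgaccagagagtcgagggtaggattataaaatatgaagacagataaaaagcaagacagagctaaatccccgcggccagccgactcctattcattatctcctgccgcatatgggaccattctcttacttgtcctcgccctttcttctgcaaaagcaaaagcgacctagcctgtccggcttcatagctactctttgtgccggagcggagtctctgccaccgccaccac
The GC box occurred 9 times before Fzd5, 7 times before Fzd4 and 0 times before Fzd1, and 32.7% of 32851 promoter windows of the same length held at least 1. GC content was 76.4%, 72.8% and 51.2%, against a median of 52.4%. The TCF/LEF core, searched as CTTTGAA or CTTTGAT on both strands, was in none of these 3 windows and in 7.48% of all windows. The GLIS core TGGGGGGT, searched likewise, was in none of the 3 and in 1.36% of all. These are matches of letters in a short window. Fzd2, Fzd3, Fzd8, Lrp5 and Lrp6 had no entry.

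Depth, estimated from the steps that single reads leave in low RPKM values, was 25.8 to 29.2 megareads (M) per library. At that depth, between 56.8% and 62.6% of those low values were within 0.15 of a whole read. At a fixed depth 30% is the chance share. The depth was picked for the largest share, and what chance gives for such a maximum was not tested. Per-library RPKM sums were 267688 to 279122. With GENCODE M21 exon lengths, the members then rest on about 251 to 506 reads per library for Fzd4, the scarcest, and 4431 to 5644 for Lrp5, which is a counting error of 4.45% to 6.31% for Fzd4. These read numbers are approximate, because the authors' transcript lengths are not given. Glis3 stood at 12.6 RPKM in its own knockdown against 25.1 in control, and Prom1 at 92.0 in the CD133 knockdown against 197. Of 10 ductal markers 9 were in the table, with summed RPKM of 9326.25 to 9889.6 in control, 7269.53 to 8597.3 in the Glis3 knockdown and 7325.26 to 7672.87 in the CD133 knockdown. Spp1 (osteopontin) made up most of these sums. Without it, a split made after its values were seen, the other 8 summed to 2836.22 and 3156.65 RPKM in control libraries 1 and 3, 3385.61 and 3101.56 in the Glis3 knockdown, and 4197.84 and 3471.28 in the CD133 knockdown. Of these 8, 5 had a higher mean than control in the Glis3 knockdown and 6 in the CD133 knockdown. Krt19 was at 136% and 159% of control in the same order. No endothelial marker of 9 had a value. Of 10 acinar markers only Cela1 did, with at most 1.06 RPKM. Of 9 endocrine markers Gcg, Sst, Ppy and Chga did, and their sum was 3.51 to 9.70 RPKM in control, 6.04 to 12.23 in the Glis3 knockdown and 0.86 to 2.61 in the CD133 knockdown. Fn1, the 1 of 10 mesenchymal markers measured, stood at 111.93 to 112.32, 53.48 to 56.31 and 84.7 to 87.79 RPKM in the same order. The 3 of 7 Schwann and neural markers measured summed to 16.47 to 16.87, 12.81 to 13.99 and 14.34 to 15.13 RPKM. Of 9 immune markers Cd68 and Cd14 had values, summing to 400.69 to 427.93, 298.87 to 372.4 and 325.28 to 379.01 RPKM, while the pan-leukocyte gene Ptprc and the macrophage gene Csf1r had none. Cd14 made up most of these sums, at 80.6% of control in the Glis3 knockdown and 84.7% in the CD133 knockdown. Cd68 did not fall with it, at 109% and 104% of control. Some of these marker values separated the groups, such as Fn1. Others overlapped, such as Cela1, and the endocrine sum between control and the Glis3 knockdown. The part of the markers in the differences below was not tested. In bulk libraries, fewer cells of a type and less RNA per cell cannot be told apart.

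In control colonies the 2 coreceptors stood above every Frizzled member. The order by mean RPKM, which is per transcript length, was Lrp5 at 28.0 ± 0.693, Lrp6 at 18.3 ± 1.24, Fzd1 at 15.7 ± 1.27, Fzd3 at 10.4 ± 0.983, Fzd5 at 9.34 ± 0.587, Fzd2 at 7.17 ± 0.0141, Fzd8 at 6.19 ± 0.0212 and Fzd4 at 2.31 ± 0.283 (SD, n = 2 each). Fzd3 and Fzd5 were the only neighbours in this order whose control libraries overlapped, although Fzd3 was above Fzd5 within each of the 6 libraries. Lrp6 and Fzd1 also exchanged places: Lrp6 was higher in 4 of 6 libraries, and Fzd1 in Glis3 library 1 and CD133 library 3. All other neighbours kept their order in 6 of 6 libraries. Against all genes in the table, Lrp5 exceeded 82.9% of them in control and Fzd4 exceeded 14.3%.

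**Figure D1:**
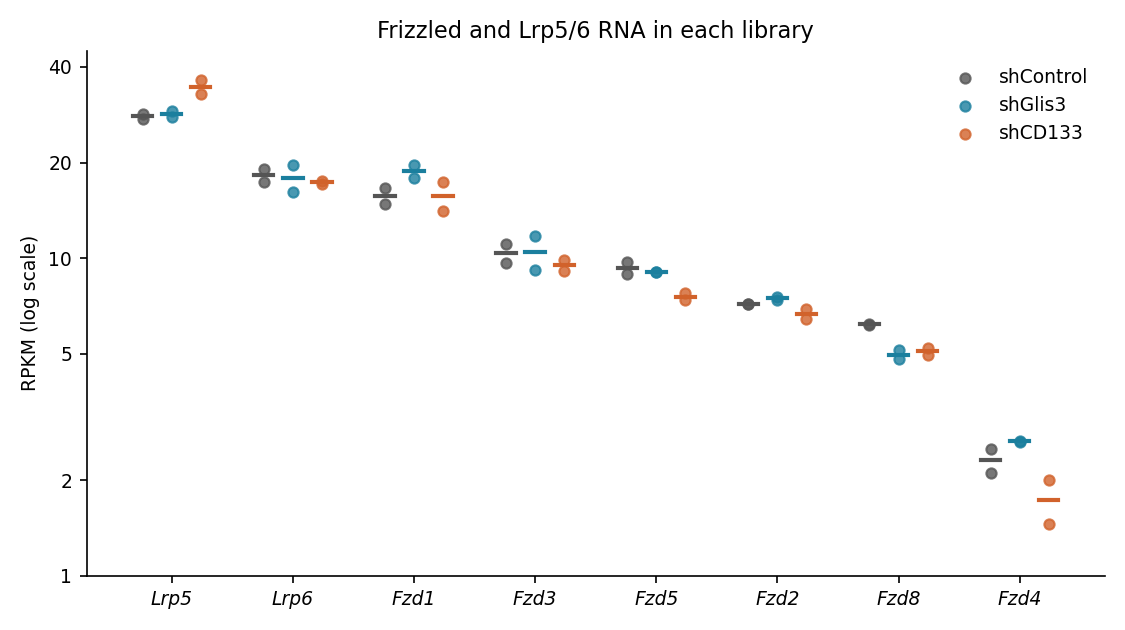
RPKM of each member (log axis) in the 6 libraries, with points for libraries and bars for group means. Members are ordered by control mean, from Lrp5 at 28.0 to Fzd4 at 2.31 RPKM; the CD133 libraries of Lrp5 lie above the other 4, and those of Fzd5 and Fzd4 below them.

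With Fzd6, Fzd7 and Fzd10, the other Frizzled genes in the table, 9 Frizzled genes were measured; Fzd9 was not analysed here. Fzd6, a polarity receptor known for hair orientation in mice, was the most abundant Frizzled, at 21.9 ± 0.262 RPKM in control, 20.9 ± 0.00707 in the Glis3 knockdown and 19.3 ± 0.0849 in the CD133 knockdown (SD, n = 2 each). Fzd7 lay between 4.09 and 4.69 RPKM and Fzd10 between 0.74 and 2.49. The 9 genes summed to 81.09 and 76.22 RPKM in control libraries 1 and 3, 77.01 and 83.49 in Glis3 libraries 1 and 3, and 68.83 and 73.92 in CD133 libraries 1 and 3. The CD133 libraries therefore had the lowest sums, without overlap with the other groups, while the Glis3 and control libraries overlapped. In the sum, the related Fzd3 and Fzd6 took 38.4% to 42.4% in any library, Fzd1, Fzd2 and Fzd7 together 34.8% to 39.1%, and Fzd5 with Fzd8 16.6% to 19.8%. The share of Fzd5 with Fzd8 was 19.6% and 19.8% in control libraries, 18.4% and 16.6% in the Glis3 knockdown, and 17.9% and 17.6% in the CD133 knockdown, below control in all 4 knockdown libraries.

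**Figure D2:**
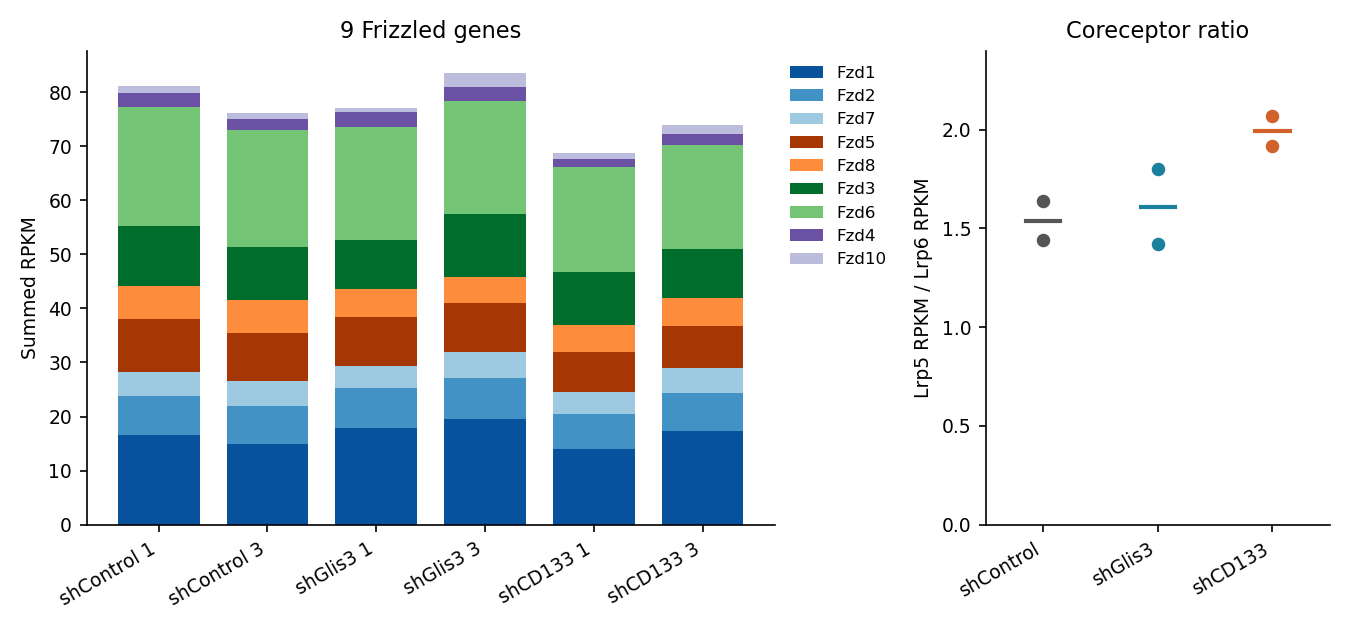
Left, RPKM of the 9 Frizzled genes stacked by library, from 68.83 (CD133 library 1) to 83.49 (Glis3 library 3) in all. Right, the ratio of Lrp5 to Lrp6 RPKM per library (points) and its group mean (bars), which is above 1.9 in both CD133 libraries and below it in the other 4.

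Fzd5 and Fzd8 form a subfamily of receptors for beta-catenin signalling. In mice Fzd5 is needed for Paneth cell maturation, and in human RNF43-mutant pancreatic cancer cells FZD5 is the Frizzled needed for growth. The mouse Fzd5 gene lies on chromosome 1 (64730558 to 64737751, minus strand, GRCm38), has its coding sequence in 1 exon, and shares 1233 exonic bases with Gm38058 on the opposite strand. Whether counting used strand is not given in the sources used here, so reads of the overlap cannot be assigned with certainty. Fzd5 stood at 9.75 and 8.92 RPKM in control libraries 1 and 3, at 9.05 and 9.06 in the Glis3 knockdown, and at 7.36 and 7.78 in the CD133 knockdown. Both CD133 libraries were below all other libraries, while the Glis3 libraries lay inside the control range. Fzd5 fell in the CD133 knockdown (log2 fold change -0.27, SE 0.0637, 95% confidence interval -0.42 to -0.12, adjusted p = 0.0421), to 81.1% of control. In the Glis3 knockdown it differed by -0.04 on the log2 scale (adjusted p = 0.718, interval -0.19 to 0.11). The CD133 call was lost without any of the 4 libraries compared, with log2 fold changes of -0.21 without control library 1 (adjusted p = 0.174), -0.33 without control library 3 (0.0936), -0.23 without CD133 library 1 (0.231) and -0.30 without CD133 library 3 (0.106). It was kept without either Glis3 library.

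Fzd8 (chromosome 18, 9212163 to 9218136, plus strand, single exon) stood at 6.17 and 6.20 RPKM in control libraries 1 and 3, at 5.12 and 4.82 in the Glis3 knockdown, and at 4.96 and 5.23 in the CD133 knockdown. All 4 knockdown libraries were below both controls, and the knockdowns overlapped each other. Fzd8 fell in the Glis3 knockdown (log2 fold change -0.27, SE 0.0622, interval -0.42 to -0.12, adjusted p = 0.0392), to 80.4% of control. In the CD133 knockdown it was at 82.4% of control with an adjusted p just over the threshold (log2 fold change -0.24, interval -0.39 to -0.09, adjusted p = 0.0535), which passed with median centring (-0.29, adjusted p = 0.0344) and with quantile normalization (-0.30, adjusted p = 0.0332). The 2 comparisons share the same control libraries, whose values for Fzd8 were nearly equal. The Glis3 call was lost without any single library of the 6, at -0.30 to -0.23 (adjusted p from 0.0519 to 0.142), and when only the 2 groups compared were fitted (adjusted p = 0.0674). With a pseudocount of 5 the value was -0.17. The sum of Fzd5 and Fzd8 was 15.92 and 15.12 RPKM in control libraries, 14.17 and 13.88 in the Glis3 knockdown, and 12.32 and 13.01 in the CD133 knockdown. The groups did not overlap in this sum, which restates the values of the 2 genes and is no further evidence. Of all genes, 59.6% did not overlap with control in the Glis3 knockdown and 62.4% in the CD133 knockdown. The share with all 3 groups apart was not computed.

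Lrp5 and Lrp6 are the coreceptors that, once phosphorylated, bind Axin. Lrp6 is the one mouse embryos depend on most, and loss of Lrp5 lowers bone mass and impairs retinal vessels. Lrp5 (chromosome 19, 3584828 to 3686564, minus strand, up to 23 exons) stood at 27.52 and 28.50 RPKM in control libraries 1 and 3, at 29.01 and 27.88 in the Glis3 knockdown, and at 36.41 and 32.87 in the CD133 knockdown. Both CD133 libraries were above the other 4, and the Glis3 and control libraries overlapped. Lrp5 rose in the CD133 knockdown (log2 fold change 0.30, SE 0.0643, interval 0.14 to 0.45, adjusted p = 0.0341), to 124% of control. In the Glis3 knockdown the log2 fold change was 0.02 (interval -0.13 to 0.17, adjusted p = 0.851), or -0.04 with median centring and -0.01 with quantile normalization. The CD133 call was lost with median centring (0.24, adjusted p = 0.0683). It was lost too without any of the 4 libraries compared, at 0.27 without control library 1 (adjusted p = 0.151), 0.32 without control library 3 (0.108), 0.22 without CD133 library 1 (0.201) and 0.37 without CD133 library 3 (0.0515).

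Lrp6 (chromosome 6, 134446476 to 134566965, minus strand, 23 exons) stood at 19.14 and 17.39 RPKM in control, at 16.13 and 19.66 in the Glis3 knockdown, and at 17.56 and 17.13 in the CD133 knockdown. The groups overlapped, and Glis3 libraries 1 and 3 held the lowest and the highest values of all. Its log2 fold change was -0.03 in the Glis3 knockdown (adjusted p = 0.847, interval -0.26 to 0.20) and -0.07 in the CD133 knockdown (adjusted p = 0.668, interval -0.30 to 0.16). The ratio of Lrp5 to Lrp6 RPKM was 1.44 and 1.64 in control libraries, 1.80 and 1.42 in Glis3 libraries, and 2.07 and 1.92 in CD133 libraries. The ratio was thus higher in both CD133 libraries than in any other. Lrp5 and Lrp6 together summed to 45.14 to 47.54 RPKM in control and Glis3 libraries and to 53.97 and 50.0 in CD133 libraries 1 and 3. The ratio of summed Frizzled to summed Lrp RPKM was 1.74 and 1.66 in control, 1.71 and 1.76 in the Glis3 knockdown, and 1.28 and 1.48 in the CD133 knockdown, lowest in the CD133 libraries. These ratios and sums restate the values of Lrp5 and the other genes in them, and are no further evidence.

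Fzd1 and Fzd2 belong, with Fzd7, to a subfamily of close paralogs, among which reads can be hard to assign. Fzd1 (chromosome 5, 4753839 to 4758035, minus strand, single exon) stood at 16.63 and 14.83 RPKM in control, at 17.90 and 19.62 in the Glis3 knockdown, and at 14.04 and 17.35 in the CD133 knockdown. Both Glis3 libraries were above the other 4, and the CD133 libraries lay on both sides of the controls. The log2 fold change in the Glis3 knockdown was 0.24 (SE 0.107, interval -0.01 to 0.50, adjusted p = 0.184) and did not pass. In the CD133 knockdown it was -0.01 (interval -0.26 to 0.25, adjusted p = 0.968). Fzd2, a receptor through which Wnt5a acts (chromosome 11, 102604396 to 102608058, plus strand, single exon), stood at 7.16 and 7.18 RPKM in control, at 7.39 and 7.57 in the Glis3 knockdown, and at 6.45 and 6.93 in the CD133 knockdown. The 3 groups did not overlap, and the share of all genes with all 3 groups apart was not computed. The differences were small, with log2 fold changes of 0.05 (adjusted p = 0.580, interval -0.09 to 0.20) in the Glis3 knockdown, or -0.004 with median centring, and -0.09 (interval -0.23 to 0.05, adjusted p = 0.365) in the CD133 knockdown.

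Fzd3 and Fzd4 differ in their known roles: Fzd3 guides axons and acts in planar cell polarity, while Fzd4 is the receptor for Norrin, a ligand unrelated to Wnt, in retinal vessels. Fzd3 (chromosome 14, 65192449 to 65262463, minus strand, 7 exons) stood at 11.06 and 9.67 RPKM in control, at 9.18 and 11.71 in the Glis3 knockdown, and at 9.86 and 9.12 in the CD133 knockdown. The groups overlapped, with log2 fold changes of 0.00 in the Glis3 knockdown (interval -0.27 to 0.28, adjusted p = 0.986), -0.05 with median centring or quantile normalization, and -0.11 in the CD133 knockdown (interval -0.39 to 0.16, adjusted p = 0.553). Fzd4 (chromosome 7, 89404355 to 89413134, plus strand, 2 exons) stood at 2.51 and 2.11 RPKM in control, at 2.66 and 2.64 in the Glis3 knockdown, and at 1.45 and 2.00 in the CD133 knockdown. Between 2 groups, 54.7% to 62.4% of all genes did not overlap, and the share with all 3 groups apart was not computed. The 3 groups of Fzd4, like those of Fzd2, did not overlap, and its CD133 libraries were lowest at 74.7% of the control mean. Neither difference passed: the log2 fold change was 0.14 in the Glis3 knockdown (adjusted p = 0.444, interval -0.13 to 0.42) and -0.29 in the CD133 knockdown (SE 0.116, interval -0.56 to -0.01, adjusted p = 0.152). The latter was -0.14 without CD133 library 1 and -0.43 without CD133 library 3. Fzd4 also had the widest relative range of the members, its highest library at 1.83 times its lowest, against 1.17 times for Fzd2.

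**Figure D3:**
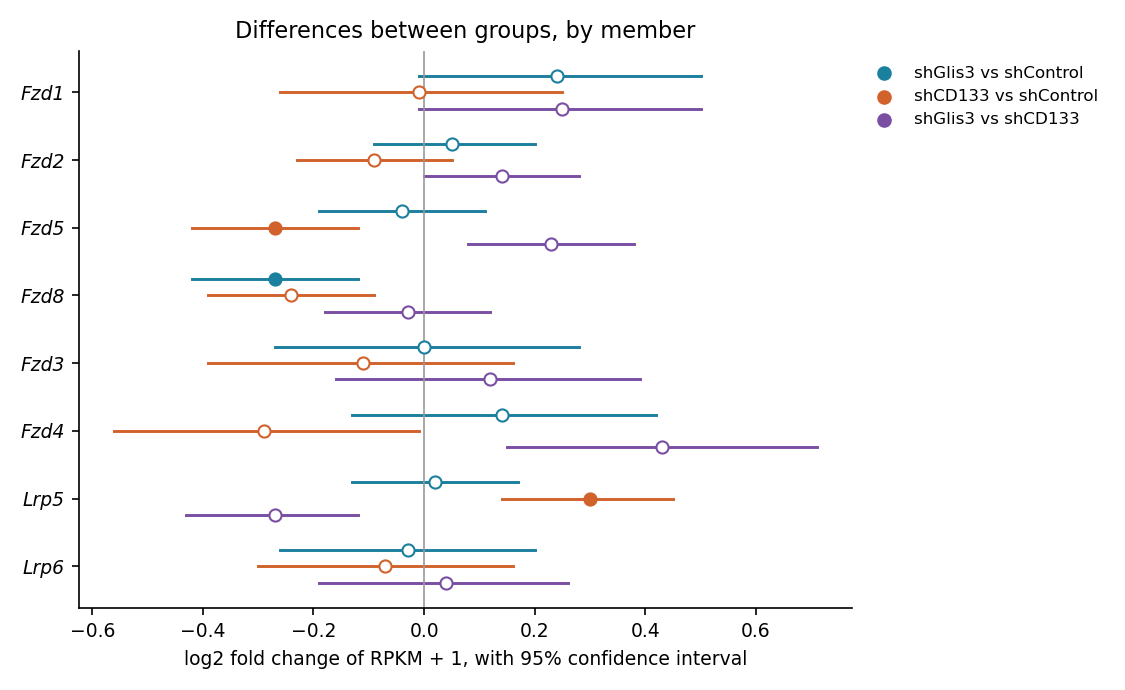
Log2 fold change of RPKM + 1 with its 95% confidence interval for each member in the 3 comparisons; filled points have an adjusted p under 0.05. The filled points are Fzd8 in the Glis3 knockdown at -0.27, and Fzd5 at -0.27 and Lrp5 at 0.30 in the CD133 knockdown. Each lost its call in fits that left out 1 library, as did many other called genes.

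In the Glis3 knockdown against control, which asks which receptor genes depend on Glis3, 1 of 8 members was called, Fzd8, and it fell. Among the 10829 genes tested, 12.9% were called, 8.39% higher and 4.53% lower, so the members' count is near the background. Higher genes made up 64.9% of these calls, but 44.7% with median centring and 50.8% with quantile normalization. The libraries of Fzd1, Fzd2 and Fzd4 lay above both controls and those of Fzd8 below, 4 of 8 members without overlap against 59.6% of all genes (38.5% higher and 21.1% lower). The median member log2 fold change was 0.01, with 5 above 0 and 3 below, beside 0.04 for all genes. The median absolute change was 0.05 for the members and 0.11 for all genes. Without any one of the 6 libraries, limma called 0 members, while 1 or 2 had an unadjusted p under 0.05, as 1 member (Fzd8) and 30.5% of all genes did with all libraries.

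In the CD133 knockdown against control, Fzd5 fell and Lrp5 rose, 2 of 8 members. Of all genes tested 11.8% were called, 8.16% higher and 3.64% lower; higher genes made up 69.2% of the calls, but 47.7% with median centring and 50.4% with quantile normalization. With median centring Fzd5 and Fzd8 were the members called, and with quantile normalization Fzd5, Fzd8 and Lrp5. All 6 Frizzled members had values below 0, with a median of -0.18, although Fzd1 was at only -0.01. Lrp5 alone of the 8 was above 0. The share of all genes below 0 was not computed, so these counts are no result about the members. The median over all 8 was -0.10, or -0.17 to -0.06 with 1 library left out, beside 0.04 for all genes. Unlike in the Glis3 knockdown, the median absolute change was larger for the members, 0.18, than for all genes, 0.11. Because the members were chosen with earlier results of these data known, this difference is no evidence about them as a set. Fzd2, Fzd4, Fzd5 and Fzd8 lay below both controls and Lrp5 above, 5 of 8 without overlap, against 62.4% of all genes (22.1% lower and 40.3% higher). With an unadjusted p under 0.05 there were 4 members, Fzd4 and Fzd8 besides the called pair, and 31.1% of all genes. Fzd6, which is not among the 8, also lay below control in both CD133 libraries (log2 fold change -0.17, interval -0.29 to -0.06, adjusted p = 0.062). Fzd7 and Fzd10, also outside the 8, had log2 fold changes of -0.04 and 0.17, and their libraries overlapped with control. Without control library 1, control library 3, CD133 library 1 or CD133 library 3, limma called 0 members, while 2 to 4 had an unadjusted p under 0.05.

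The direct comparison of the knockdowns tests whether they differ in these genes. None of the 8 members was called by limma, where 4.06% of all genes were (1.61% higher and 2.46% lower in the Glis3 knockdown), and 3 had an unadjusted p under 0.05, against 21.9% of all genes. These were Fzd4, higher in the Glis3 knockdown by 0.43 (interval 0.15 to 0.71, adjusted p = 0.0959), Fzd5, higher by 0.23 (interval 0.08 to 0.38, adjusted p = 0.101), and Lrp5, which was lower there (log2 fold change -0.27, interval -0.43 to -0.12, adjusted p = 0.0704). Together with Fzd1 and Fzd2, which were higher in the Glis3 libraries, 5 of 8 members did not overlap, against 54.7% of all genes (27.9% higher and 26.8% lower). The difference between the knockdowns in Fzd5 and Lrp5 is thus not shown by this test, although each was called in only the CD133 knockdown. For Fzd8 the difference was -0.03 (interval -0.18 to 0.12, adjusted p = 0.829). The median absolute difference between the knockdowns was 0.19 for the members and 0.09 for all genes, which is likewise no evidence, given how the members were chosen.

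**Figure D4:**
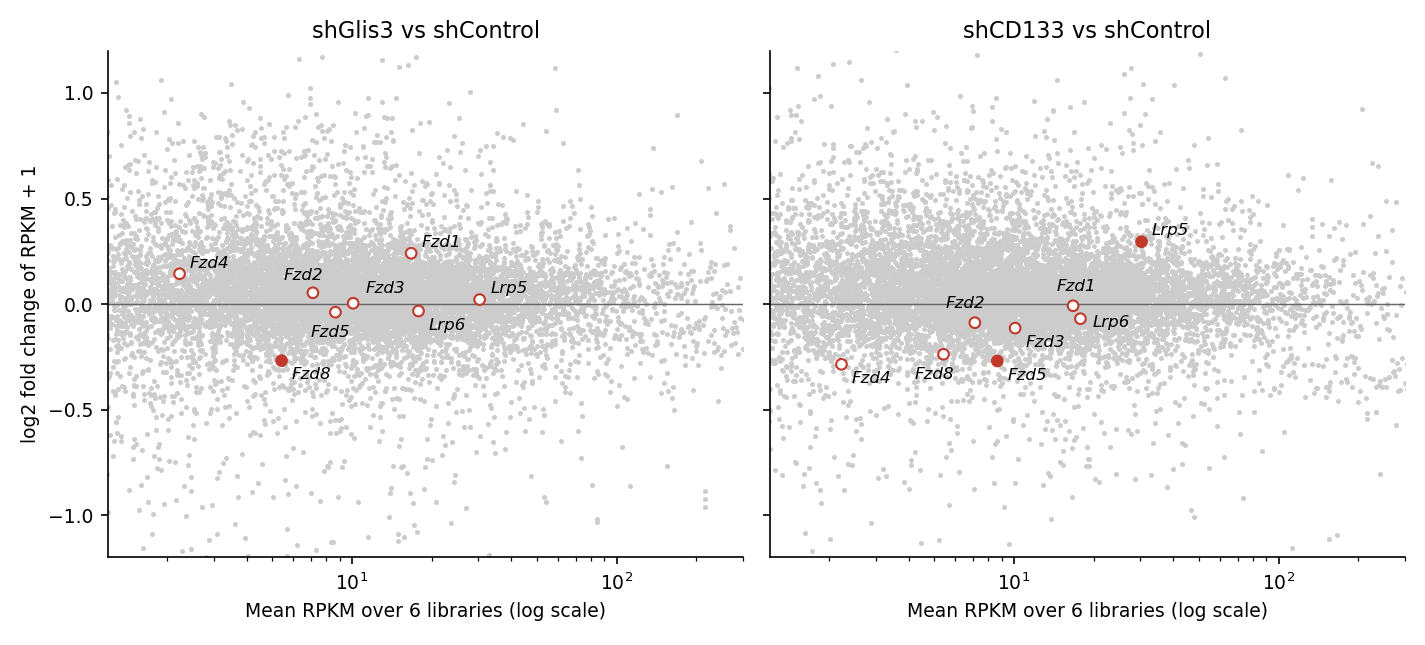
Log2 fold change of RPKM + 1 against mean RPKM over the 6 libraries (log axis) for all genes tested (grey) and the members (circles, filled where called), in each knockdown against control; genes beyond the axis limits are not drawn. The members lie within the grey cloud, with Fzd8 at -0.27 on the left and Lrp5 at 0.30 and Fzd5 at -0.27 on the right.

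Genes that act beside the receptors were described from lists of the pathway. Of all genes tested, limma called 12.9% in the Glis3 knockdown, 11.8% in the CD133 knockdown and 4.06% between the knockdowns. An unadjusted p under 0.05 was found for 30.5%, 31.1% and 21.9% in the same order. List counts near or below these shares are no result about a list. For receptor turnover, 7 of 9 listed genes were measured and 1 was called in each knockdown: Rnf43, the ligase that removes Frizzleds, rose from 20.9 ± 0.396 RPKM in control to 26.2 ± 0.431 in the Glis3 knockdown (log2 fold change 0.31, adjusted p = 0.0427) and to 28.5 ± 2.98 in the CD133 knockdown (0.43, adjusted p = 0.0216; SD, n = 2 each). The Glis3 call of Rnf43 was lost with median centring (0.25, adjusted p = 0.0821), with quantile normalization (0.29, adjusted p = 0.0584) and with no variance trend (adjusted p = 0.0540). Of 6 alternative Wnt receptors measured, Sdc4 (a heparan sulfate proteoglycan) fell by 0.41 in the Glis3 knockdown and Ptk7 (a pseudokinase coreceptor) fell by 0.29 in the CD133 knockdown, while 5 did not pass in each. Of 5 genes of receptor assembly tested, Cav1 (caveolin 1, which in human cells takes part in uptake of LRP6) fell by 0.52 and 0.47 in the Glis3 and CD133 knockdowns. Caprin2 (a scaffold for Lrp5 and Lrp6 phosphorylation) rose by 0.35 in the Glis3 knockdown, at levels of only 0.875 to 1.39 RPKM; its call was lost with median centring (adjusted p = 0.0708), with quantile normalization (0.0678) and with only the 2 groups fitted (0.0700). Fzd6, Fzd7 and Fzd10 were not called by limma in any comparison, and 1 of them, Fzd6 in the CD133 knockdown, had an unadjusted p under 0.05.

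Ligands and intracellular partners showed other counts, to be read beside the same shares of all genes. Of 8 Wnt ligands measured, 4 fell in the Glis3 knockdown, among them Wnt10a at -1.21. Of these 8, limma called 0 in the CD133 knockdown, and 2 had an unadjusted p under 0.05. Wnt10a and Wnt7b were lower in the Glis3 than in the CD133 knockdown (log2 fold changes of -1.40 and -0.39), the latter not called with only these groups fitted (adjusted p = 0.0689). In the CD133 knockdown Porcn (the acyltransferase that lipidates Wnts) rose by 0.48, 1 of 6 secretion genes, and Notum (a deacylase that inactivates Wnts) rose by 0.96, 1 of 3 secreted antagonists measured. Notum stood at 31.93 and 18.98 RPKM in CD133 libraries 1 and 3, and its log2 fold change was 0.60 without library 1 and 1.32 without library 3; with quantile normalization it was 0.91 and not called (adjusted p = 0.0525). Of 20 genes of the complex next to the receptors, Axin2, a feedback inhibitor and Wnt target, rose by 0.54 and Dvl1 (a Dishevelled, with an adjusted p barely under 0.05) by 0.44 in the CD133 knockdown, while Dact2 and Ctnnb1 (beta-catenin) fell by 0.52 and 0.36 in the Glis3 knockdown. The call of Ctnnb1 was lost with quantile normalization (-0.24, adjusted p = 0.0886) and with only the 2 groups fitted (0.0665), and that of Dvl1 with median centring (adjusted p = 0.0709), quantile normalization (0.0744) and no variance trend (0.0579). Axin2 was at 0.36 without CD133 library 1. Porcn, Notum, Axin2 and Dvl1 were also higher in the Glis3 knockdown, at 119%, 145%, 131% and 112% of the control mean. In the CD133 knockdown they stood at 143%, 208%, 149% and 138%. None of these 4 was called in the Glis3 knockdown or between the knockdowns, so these rises are not shown to be particular to the CD133 knockdown. Sox9, a ductal and progenitor factor counted among Wnt targets, rose from 32.5 ± 1.62 to 43.5 ± 0.453 RPKM in the CD133 knockdown (log2 fold change 0.41, adjusted p = 0.0151; SD, n = 2 each), 1 of 3 that rose among 19 TCF factors and targets, with Rnf43 and Axin2. In the Glis3 knockdown 2 of these 19 rose, Ephb2 at 0.43 and Rnf43. Of 10 planar cell polarity genes, Ankrd6 rose by 0.37 and Vangl2 and Celsr1 fell by 0.26 and 0.44 in the Glis3 knockdown. Ankrd6 was not called with median centring or quantile normalization (adjusted p = 0.0678 and 0.0696), nor Celsr1 with quantile normalization (0.0518), nor Vangl2 and Celsr1 with only the 2 groups fitted (0.0646 and 0.0707). Of the 10, limma called 0 in the CD133 knockdown, where 2 had an unadjusted p under 0.05.

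These lists hold 13 named calls in the Glis3 knockdown, 8 in the CD133 knockdown and 3 between the knockdowns. Without control library 1 the number still past the threshold was 0, 0 and 1. Without control library 3 it was 0, 0 and 1, and without CD133 library 1 it was 9, 0 and 1. Without CD133 library 3 it was 9, 4 and 1, without Glis3 library 1 it was 8, 8 and 2, and without Glis3 library 3 it was 5, 8 and 1. With median centring it was 10, 7 and 3, with quantile normalization 8, 6 and 3, and with only the 2 groups compared 9, 8 and 1.

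**Figure D5:**
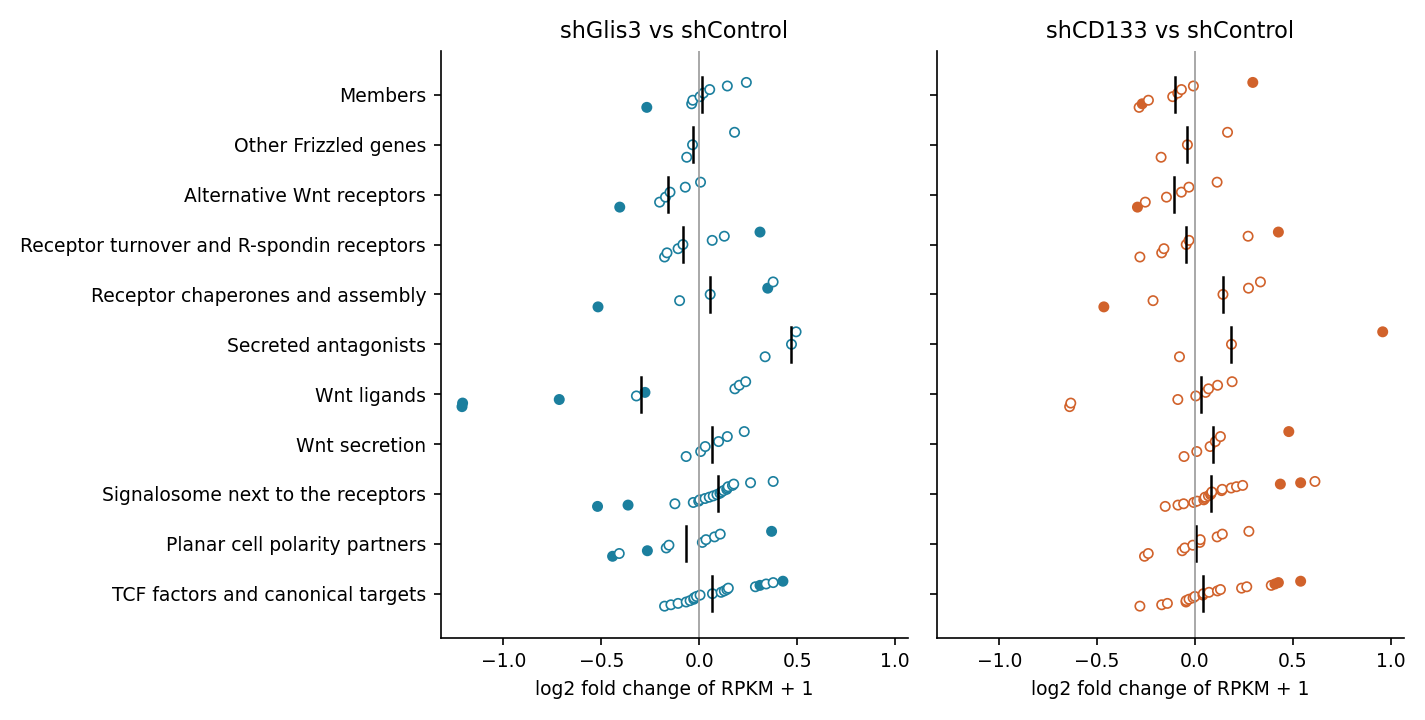
Log2 fold change of RPKM + 1 of each gene tested in the members and in the pathway lists, for each knockdown against control; filled points have an adjusted p under 0.05 and black bars are list medians. Member medians are 0.01 and -0.10; Wnt10a and Wnt16 at -1.21 lie farthest left in the Glis3 knockdown and Notum at 0.96 farthest right in the CD133 knockdown.

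For the called members, the genes with the most similar profile over the 6 libraries were found among 7718 named genes whose mean reached 5 RPKM, as the smallest root mean square distance of centred log2(RPKM + 1) values. For Fzd8 these were Pcmtd2, Spin1 and Sox4, a transcription factor, at 0.00977, 0.017 and 0.0193 log2 units, against a median of 0.163 over all genes. Sox4 stood at 208.72 and 202.79 RPKM in control, 171.87 and 164.99 in the Glis3 knockdown, and 170.13 and 173.94 in the CD133 knockdown, lower in all 4 knockdown libraries than in control, like Fzd8. For Fzd5 the nearest were Pla2g6 (a phospholipase), Amotl1 (an angiomotin) and Rrm2b (a ribonucleotide reductase subunit), at 0.0259, 0.0268 and 0.029. For Lrp5 they included Cdv3 and Rgs12 (a regulator of G-protein signalling), at 0.0185 and 0.0308. Cdv3 stood at 23.00 and 24.41 RPKM in control, 25.02 and 23.64 in the Glis3 knockdown, and 31.21 and 28.70 in the CD133 knockdown, highest in the CD133 libraries. Such profiles were common: 791 genes lay within 0.1 log2 units of Fzd8, 807 of Fzd5 and 706 of Lrp5.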

How the data were processed

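RNA of 6 libraries in 3 groups of 2 was analysed from 1 table of RPKM values that the authors deposited, with 2 decimals. Per the submitters' processing notes, bcl2fastq 2.18.0.12, TopHat2, HTSeq and the build mm10 were used; settings, gene annotation, strand use and library total were not given in the sources used here. Per the labels' protocols, libraries were made with a stranded poly(A) kit. No gene's highest value was below 1 RPKM, so genes under that level in every library have no value. Columns were matched to samples by the names in their descriptions.

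Values were tested as log2(RPKM + 1) with limma 3.58.1 in R 4.3.3, over the 10829 genes whose mean reached 1 RPKM, with 3 group means, a variance trend, 3 residual and 3.69 prior degrees of freedom. P-values are two-sided and adjusted by Benjamini-Hochberg over these genes; a gene was called at an adjusted p under 0.05. SE and intervals (95%) are the moderated ones. This scale understates changes of genes with low values. The fit was tested on simulated data. The members and gene lists were chosen with earlier results of these data known. From each list up to 3 called genes per comparison, by smallest p, are named, with all 8 members, the other Frizzled genes and the targeted genes; a few genes that were listed or picked in this way are not reported here.

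Depth was estimated from genes with 1 basic GENCODE M21 transcript under 1200 bases and values under 3 RPKM, scanning 3 to 80 M reads; counting errors cover counting only. Alternatives were the pseudocount, the filter, median centring, quantile normalization, fitting only 2 groups, no variance trend, the replicate number as a block, and leaving out each library. Python 3.11.15 was used for summaries.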

Additional observations from a re-analysis of the deposited data

How the results depend on the processing

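Of 357 alternative values of member log2 fold changes, 318 kept their direction and their side of the threshold, 19 lost a call, 2 gained one and 18 changed sign, all of these in differences that were not called. Median centring gave -0.0038 for Fzd2, -0.0535 for Fzd3 and -0.0361 for Lrp5 in the Glis3 knockdown, and quantile normalization -0.0478 for Fzd3 and -0.0055 for Lrp5. With 1 library left out, values in the Glis3 knockdown ran from -0.156 to 0.164 for Fzd3, -0.0964 to 0.0195 for Fzd5, -0.0063 to 0.0491 for Lrp5 and -0.168 to 0.102 for Lrp6. In the CD133 knockdown Fzd1 ran from -0.152 to 0.135. Between the knockdowns Fzd3 ran from -0.0424 to 0.278, Fzd8 from -0.0663 to 0.0063 and Lrp6 from -0.0988 to 0.172. In these fits a lone library is assumed to vary like the other groups.

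The count of members called in the Glis3 knockdown was 0 when only the 2 groups were fitted and 0 without any single library (0 to 0); in the CD133 knockdown it was 0 to 2. The member median with 1 library left out was -0.02 to 0.09 in the Glis3 knockdown, -0.17 to -0.06 in the CD133 knockdown and 0.07 to 0.20 between the knockdowns. Genes called in the Glis3 knockdown numbered 913 at a minimum mean of 5 RPKM, where fewer genes were tested, and 21 to 1343 with 1 library left out. In the CD133 knockdown they numbered 0 to 1673, where limma called 0 without either control library while 2449 and 2680 genes had an unadjusted p under 0.05. Between the knockdowns they numbered 58 with only the 2 groups and 46 to 756 with 1 library left out. Where a smaller fit did not itself explain a change, the cause was not tested.

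The libraries share only the numbers 1 and 3: the deviations of replicate 3 from replicate 1 correlated over genes at -0.372 between control and Glis3 libraries, -0.428 between control and CD133 libraries and 0.032 between the knockdowns. With the replicate number as a block, the fit called 0 members in each knockdown (1 and 3 with an unadjusted p under 0.05), and 608, 335 and 79 genes in the 3 comparisons. Of the 13, 8 and 3 list calls named in the 3 comparisons, 4, 2 and 1 passed with this block. A pseudocount of 5 gave -0.694 for Wnt10a, -0.434 for Wnt16, -0.345 for Dact2, 0.158 for Ankrd6 and 0.121 for Caprin2 in the Glis3 knockdown, all smaller by over 1.5 times. Precision is limited by 2 libraries per group. The approximate counting error was 1.33% to 1.5% for Lrp5 and 4.45% to 6.31% for Fzd4, and its part in the spread was not tested.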
